A study of Mus musculus with 6 samples.

Results

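Memory-like CD8 T cells that held no transcript of Gzmk are described here: 720 cells of the 1846 CD8 T cells gated in mouse spleen, of 20161 cells kept in all. They were chosen by counts of antibody and of unique molecular identifiers (UMIs, each counting 1 captured RNA molecule). A cell entered with at least 91 counts of the CD8a antibody, at most 33 of the CD4 antibody, at least 1 UMI of Cd3d, Cd3e or Cd3g and none of the B cell gene Cd79a. These gave the 1846 CD8 T cells. Of these, a memory-like cell had at least 3 UMIs of the chemokine gene Ccl5, at least 1 of Ly6c2, and none of Gzmk or Pdcd1. Gzmk encodes a granzyme and Pdcd1 the inhibitory receptor PD-1. Ccl5, Ly6c2, Gzmk, Pdcd1, CD8a and CD4 therefore chose the cells and are no findings about them.

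Splenocytes were measured by CITE-seq, which counts RNA and antibodies carrying DNA tags in the same cell. The labels and methods describe 3 groups of male C57BL/6 mice. Aged mice (20 months) were given platelet factor 4 (PF4, a platelet chemokine, at 5 μg/mL) or saline, and young mice (3 months) were given saline. Each group received 8 tail vein injections of 100 μL over 24 days, and the splenocytes of 5 mice were pooled into 1 library after red blood cells were lysed. Barcodes carry the suffix 1, 2 or 3, but which group each suffix stands for is not stated in the labels, headers or methods. The libraries are therefore named 1, 2 and 3, no effect of age or PF4 was compared, and no test was run. No library has a replicate, and the intervals given are exact 95% intervals (Poisson for levels, Clopper-Pearson for shares) that cover counting error only.

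A CD8 T cell that has met antigen, or has expanded on cytokine alone, keeps CD44 and the interleukin receptor chain CD122 (Il2rb) at its surface and transcribes chemokine and natural killer (NK) receptor genes. Naive CD8 T cells lack these and carry the lymph node homing receptor Ccr7. Memory CD8 T cells that arise without infection, known as virtual memory cells in mice, depend on the T-box factor Eomes, express Ly-6C and CD122 and hold little of the integrin chain CD49d, the product of Itga4. In old mice a separate CD8 T cell population marked by Gzmk, Tox and PD-1 is known to accumulate.

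The memory-like cells numbered 191, 447 and 82 in libraries 1, 2 and 3. They made up 44.0% (39.3 to 48.8) of CD8 T cells in library 1, 56.4% (52.9 to 59.9) in library 2 and 13.2% (10.7 to 16.1) in library 3, so the intervals of all 3 libraries were apart. As a share of all kept cells they were 4.55%, 5.95% and 0.970%. Cells with at least 3 Ccl5 UMIs and a UMI of Gzmk or Pdcd1, with or without Ly6c2, are called Gzmk or Pdcd1 positive and numbered 100, 61 and 12 (23.0%, 7.70% and 1.94% of CD8 T cells). CD8 T cells without a Ccl5 UMI numbered 93, 181 and 452 (21.4%, 22.9% and 72.9%). The other CD8 T cells had 1 or 2 Ccl5 UMIs (31, 83 and 67 cells) or at least 3 without Ly6c2, Gzmk or Pdcd1 (19, 20 and 7 cells).

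**Figure D1:**
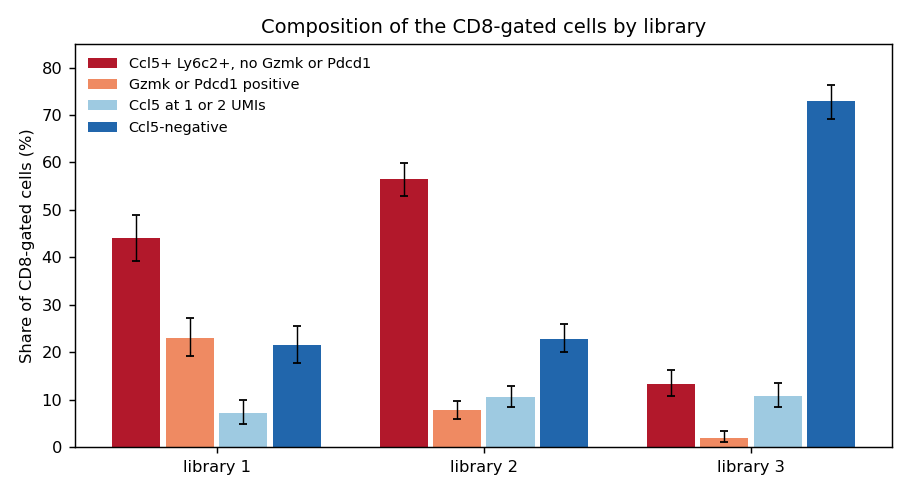
Share of CD8 T cells (percent, y axis) taken by the memory-like cells, the Gzmk or Pdcd1 positive cells, the cells with 1 or 2 Ccl5 UMIs and the Ccl5-negative cells in libraries 1, 2 and 3, with exact 95% binomial intervals; the few cells with Ccl5 and no Ly6c2 are not drawn. The memory-like share was 44.0% and 56.4% in libraries 1 and 2 and 13.2% in library 3, where Ccl5-negative cells made up 72.9%.

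The libraries held 24569928, 36599055 and 40949298 RNA UMIs. The memory-like cells were the deeper ones, with median counts of 7406, 8129 and 7590 UMIs per cell, against 4723, 3952 and 5325.5 in Gzmk or Pdcd1 positive cells and 5361, 5792 and 5692.5 in Ccl5-negative cells. Shares of cells with a UMI are therefore given after thinning each cell to 2000 UMIs, which left out 3, 3 and 0 memory-like cells. Of all barcode sequences, 68 occurred under more than 1 suffix, among them 1 memory-like barcode, and no sequence was shared between memory-like cells of different libraries. A doublet caller (Scrublet) marked 0, 3 and 0 of the memory-like cells.

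Cells just inside and just outside the limits were alike in some steps and not in others. The 9 cells with exactly 3 Ccl5 UMIs had a median of 172 CD44 antibody counts and the 14 cells with 2 had 25. The 13 cells with 1 Ly6c2 UMI had 195 CD44 counts and the 46 cells with none 144. The 176 cells left out for a single Cd79a UMI had 248.5 CD44 and 461 Ly-6C antibody counts, beside 254 and 462.5 in the memory-like cells. Taking those cells in, an alternative chosen after seeing the data, gave memory-like shares of 43.1%, 57.3% and 13.3%. The 24 cells left out for 1 Gzmk UMI had 221 CD44 and 382 Ly-6C counts.

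Surface protein set the memory-like cells apart from Ccl5-negative CD8 T cells most by CD44, the hyaluronan receptor that marks antigen-experienced T cells. The median CD44 antibody count was 266, 259 and 192 per cell in memory-like cells, 118.5, 158 and 205 in Gzmk or Pdcd1 positive cells and 17, 18 and 22 in Ccl5-negative cells. The 95th percentile of the Ccl5-negative cells differed, at 143.4, 202 and 125 counts in libraries 1, 2 and 3. Above the percentile of their own library lay 94.2%, 78.7% and 76.8% of memory-like cells. The 5th percentile of the memory-like cells was lowest in library 3, at 43.4 counts against 141.5 and 122.3 in libraries 1 and 2. The lowest single cells had 9, 16 and 16 counts in libraries 1, 2 and 3.

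Ly-6C, the protein of the Ly6c genes, had medians of 433, 473 and 419 antibody counts in memory-like cells, 156.5, 172 and 251.5 in Gzmk or Pdcd1 positive cells and 153, 173 and 192 in Ccl5-negative cells. Since Ly6c2 chose the cells, this protein is not independent of the rule. CD38, an ectoenzyme that cleaves NAD, was lower than in Gzmk or Pdcd1 positive cells, at 21, 17 and 18 against 63.5, 56 and 40 counts. Ccl5-negative cells had 9, 11 and 12 counts. The T cell receptor β chain was lower than in Ccl5-negative cells, at 59, 63 and 56.5 against 92, 99 and 91 counts. PD-1 had medians of 4, 5 and 5 counts in memory-like cells and 8, 9 and 9 in the Gzmk or Pdcd1 positive cells that its own transcript helped to choose. CD27, a costimulatory receptor, was at 55, 58 and 59 counts against 39, 41 and 41 in Ccl5-negative cells. As shares of antibody counts the CD27 ratios were nearer to even, at 1.07, 1.12 and 1.15. Cd27 RNA was 0.755-, 0.806- and 0.942-fold that of Ccl5-negative cells. Of the 32 antibodies that the rule did not use, Ly-6C, CD44 and CD38 were at least 1.5-fold higher over Ccl5-negative cells by medians in each library (CD38 exactly 1.5-fold in library 3) and TCRβ at least 1.5-fold lower. As shares of antibody counts the CD38 ratios were 1.34, 0.845 and 1.13, at least 1.5 in no library. Over Gzmk or Pdcd1 positive cells only Ly-6C was higher, and PD-1, CD86 and CD38 were lower.

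**Figure D2:**
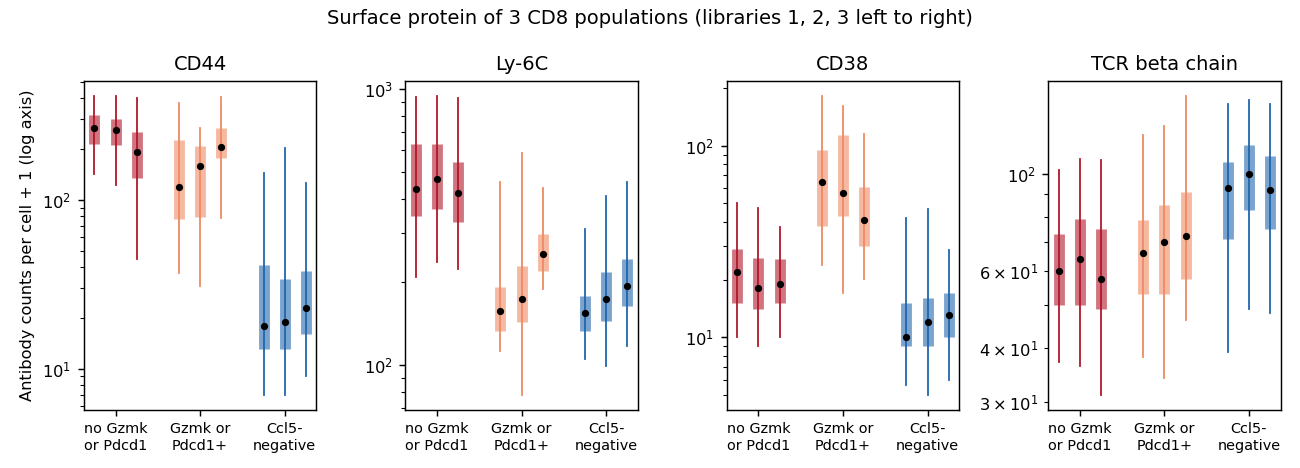
Antibody counts per cell (count + 1, log axis) in memory-like, Gzmk or Pdcd1 positive and Ccl5-negative CD8 T cells, libraries 1 to 3 from left to right within each population; dots are medians, boxes quartiles and lines the 5th to 95th percentiles. CD44 had medians of 266, 259 and 192 in memory-like cells and 17, 18 and 22 in Ccl5-negative cells.

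Levels of RNA are given as CPM, the counts scaled to a common total of RNA UMIs (per 1e6), summed over the cells of a population in 1 library. A gene was counted as higher or lower where its CPM, after adding 0.5 counts, was past 2-fold in the same direction in all 3 libraries, among genes with a mean of at least 20 CPM. Over Ccl5-negative CD8 T cells 78 of 5442 genes were higher in memory-like cells (1.43% of those tested) and 41 lower (0.753%). The lists below were chosen with earlier results of these data known, and each count has these shares as its background. A gene near 0 in one population passes the filter only through the population where it is high, so the counts over a list describe it and support nothing further.

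The genes given with the name of these cells were Gzmm, Ctla2a, Klrc2 and Eomes, beside Ly6c2 of the rule, and all 4 were higher than in Ccl5-negative cells. Gzmm (chr10:79689020-79695261, plus strand), which encodes granzyme M, an enzyme of cytotoxic granules, was at 257 CPM (231 to 284) in library 1, 269 (252 to 286) in library 2 and 62.5 (44.8 to 84.7) in library 3. Ccl5-negative cells had 0, 3 and 6 Gzmm UMIs in all (0, 2.94 and 2.36 CPM), so that memory-like cells were at least 43.0-fold higher in library 1, against a floor of 3 counts in that library, and 26.5-fold higher in library 3. Library 3 stood apart: its Gzmm level was below the interval of both other libraries.

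Klrc2 (chr6:129647496-129660689, minus strand), the activating receptor NKG2C, was at 138 CPM (119 to 158), 133 (121 to 145) and 89.9 (68.4 to 116) in memory-like cells, and at 3.98, 0 and 2.75 CPM (2, 0 and 7 UMIs) in Ccl5-negative cells. Ctla2a (chr13:60934155-60936625, minus strand), a cathepsin inhibitor of T cells, was at 529, 396 and 250 CPM in memory-like cells and 55.7, 43.2 and 26.7 in Ccl5-negative cells, or 9.50-, 9.17- and 9.35-fold higher. The ratio was thus nearly the same in each library while the level was lowest in library 3. Eomes (chr9:118478212-118486132, plus strand), the T-box factor of memory and NK cells, was at 165, 197 and 113 CPM in memory-like cells and 45.8, 24.5 and 25.2 in Ccl5-negative cells (3.61-, 8.04- and 4.48-fold).

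The same 4 genes did not set the memory-like cells apart from the Gzmk or Pdcd1 positive cells, as none of them was past 2-fold in every library. Ctla2a was at 768, 732 and 438 CPM and Eomes at 278, 360 and 208 CPM in Gzmk or Pdcd1 positive cells, above the memory-like cells in each library. Gzmm was at 72.1 and 51.5 CPM in libraries 1 and 2, below the memory-like cells, and at 110 CPM (10 UMIs of 12 cells) in library 3, above them. Klrc2 was at 26.8, 73.6 and 76.7 CPM there. All 8 CD8 T cell markers, the rule's Cd3d, Cd3e and Cd3g among them, were present, summing to 5076, 4601 and 5058 CPM, while Cd4, Foxp3, Tnfrsf4 and Cd40lg together summed to 6.30, 3.25 and 6.09 CPM.

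The memory phenotype list came next. Of 19 listed, 9 were higher than in Ccl5-negative cells and none lower, and 3 did not pass the filter. Il2rb (chr15:78479256-78495271, minus strand), the CD122 chain that binds interleukins of T cell survival, was at 346 CPM (316 to 378), 371 (351 to 391) and 382 (337 to 433) in memory-like cells and 49.7, 57.9 and 49.5 in Ccl5-negative cells. The intervals of the 3 libraries overlapped, so Il2rb did not carry the difference in level that Gzmm had in library 3. After thinning, 51.1%, 51.6% and 52.4% of memory-like cells had an Il2rb UMI, against 11.6%, 9.15% and 8.51% of Ccl5-negative cells and 1.32%, 1.98% and 2.43% of cells with Cd79a and no Cd3 UMI, the background given here for RNA of other cells.

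Cd44 (chr2:102811141-102901665, minus strand) was at 102, 92.8 and 107 CPM in memory-like cells against 11.9, 6.87 and 16.1 in Ccl5-negative cells (8.56-, 13.5- and 6.62-fold). Cxcr3, a receptor of interferon-induced chemokines and a known receptor of PF4, was at 125 (107 to 144), 137 (125 to 149) and 120 CPM (95.3 to 150) in memory-like cells. The 3 intervals overlapped. Cxcr3 was at 177, 151 and 197 CPM in Gzmk or Pdcd1 positive cells and 21.9, 3.93 and 11.4 in Ccl5-negative cells. Il18r1, the interleukin 18 receptor, was at 280, 344 and 229 CPM against 67.6, 80.5 and 57.0, and its partner chain Il18rap at 120, 114 and 85.3 against 11.9, 6.87 and 8.26 CPM. Itgb1, the integrin β1 chain, and Tbx21, which encodes the T-box factor T-bet, were higher as well. Tbx21 was at 46.2, 41.4 and 51.8 CPM against 3.98, 3.93 and 3.15 CPM. Il7r (1072, 1183 and 814 against 607, 522 and 573 CPM) and the survival gene Bcl2 (709, 736 and 466 against 352, 226 and 279 CPM) had higher values but were not past 2-fold in every library. Beyond the list, the adaptor gene Plek (136, 149 and 74.7 against 19.9, 9.81 and 9.83 CPM) and S100a6, a calcium-binding protein gene (1477, 1692 and 366 against 189, 71.6 and 27.9 CPM), were among the 10 genes whose smallest ratio over the libraries was largest.

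Of 22 listed NK receptor and adaptor genes 7 were higher than in Ccl5-negative cells and none lower, and 10 did not pass the filter. Klrk1, the activating receptor NKG2D, was at 317 CPM (288 to 347), 264 (248 to 281) and 110 (85.8 to 138) in memory-like cells and 9.95, 5.89 and 5.11 in Ccl5-negative cells. Klrc1, the inhibitory receptor NKG2A, was at 124, 75.8 and 28.9 CPM, against 0, 1 and 1 UMIs in Ccl5-negative cells. Klrd1, the CD94 chain that pairs with both NKG2 products of the Klrc genes, was at 330, 279 and 277 CPM in memory-like cells and 185, 163 and 191 in Ccl5-negative cells, so it was transcribed on both sides. Klre1, Cd160, Slamf7 and Klra7 were the others, with Cd160 at 86.0, 67.4 and 68.6 against 19.9, 23.6 and 17.3 CPM.

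The Klra genes encode Ly49 receptors, which bind MHC class I, and are near-identical copies whose reads the counting could have split. At least 1 of 7 Klra genes had a UMI in 17.0%, 18.2% and 22.0% of thinned memory-like cells, against 0 of 86, 1.83% and 1.18% of Ccl5-negative cells, where 0 of 86 allows a share of up to 4.20%. The Klra share was thus no lower in library 3, in contrast to Klrk1, whose share was 38.8%, 36.9% and 13.4%, and Klrc1, whose share was 21.8%, 14.6% and 6.10%. Ncr1, which defines NK cells, had 1, 1 and 12 UMIs in the memory-like cells. The 6 listed NK cell markers, Eomes among them, summed to 371, 364 and 341 CPM.

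**Figure D3:**
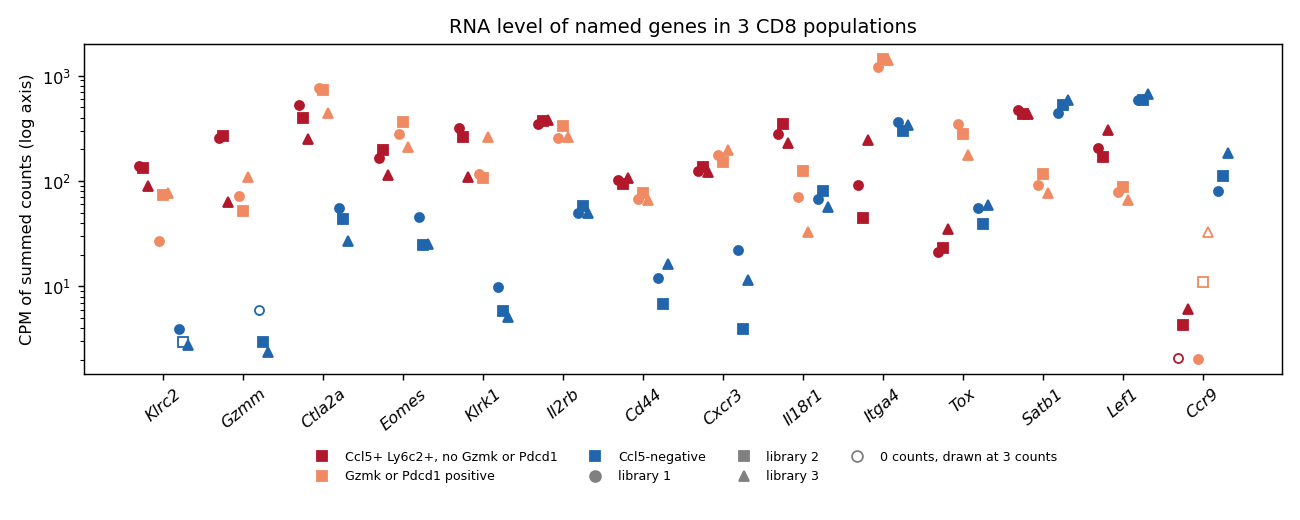
Levels of 14 genes (CPM, log axis) in memory-like, Gzmk or Pdcd1 positive and Ccl5-negative CD8 T cells of libraries 1 to 3; hollow symbols are populations with 0 counts, drawn at 3 counts. Klrk1, Gzmm and Klrc2 lay more than 20-fold above the Ccl5-negative cells in every library where that level rests on over 3 counts, and Itga4 lay below the Gzmk or Pdcd1 positive cells.

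Of the cytotoxic and cytokine list 12 of 20 genes passed the filter and 5 were higher (Gzmm, Gzmb, Gzma, Ccl4 and Zeb2). Several rested on few cells. Gzma, granzyme A, was at 44.1, 17.9 and 212 CPM, but had a UMI in only 6, 10 and 7 memory-like cells, and the top 3 cells of each library held 95.2%, 78.8% and 90.6% of its UMIs. In library 3, 29 of 35 Gzmb UMIs lay in 1 cell, and 130 of 217 UMIs of the chemokine gene Ccl4 in library 1 lay in 1 cell. Nkg7, a granule membrane protein gene, was spread over many cells, at 998, 960 and 730 CPM in memory-like cells, 2727, 1894 and 1732 in Gzmk or Pdcd1 positive cells and 517, 352 and 304 in Ccl5-negative cells. Prf1, perforin, was at 106, 120 and 80.8 CPM in memory-like cells and 53.7, 40.2 and 40.5 in Ccl5-negative cells.

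The naive list was lower in part. All 14 of its genes passed the filter, 6 were lower than in Ccl5-negative cells and none higher, with median log2 ratios of -1.10, -1.55 and -0.70 beside -0.01, -0.05 and -0.03 over all genes tested. Ccr9, a receptor of gut and thymus homing, had 0, 16 and 4 UMIs in memory-like cells (0, 4.33 and 6.09 CPM) and 79.6, 112 and 183 CPM in Ccl5-negative cells. Igfbp4 was at 3.50, 3.25 and 22.9 against 205, 203 and 163 CPM, and Dapl1 at 90.2, 139 and 206 against 475, 516 and 446 CPM. The memory-like cells of library 3 were the highest of the 3 libraries in each of these, while still below the Ccl5-negative cells. Lef1, a factor of naive T cells, was at 207, 169 and 302 against 585, 582 and 670 CPM. The homing receptor gene Ccr7 was at 65.1, 75.8 and 96.0 against 147, 247 and 230 CPM. Bach2 was lower as well, and outside the list so was Rgcc (7.69, 5.95 and 13.7 against 129, 131 and 117 CPM). Another naive gene, the chromatin organiser Satb1, was near the Ccl5-negative level, at 471, 430 and 436 against 446, 520 and 580 CPM. In Gzmk or Pdcd1 positive cells Satb1 was at 90.6, 118 and 76.7 CPM.

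Among the residence and homing lists, Cxcr3, Itgb1 and Ccr2 were among the genes higher and Ccr9, Ccr7 and Itgae among those lower. Itgae, the CD103 chain of tissue-resident and of naive CD8 T cells in mice, was at 3.50, 5.68 and 3.05 CPM in memory-like cells and 73.6, 35.3 and 55.0 in Ccl5-negative cells. None of 9 type I interferon genes and none of 5 immediate early genes that passed the filter was past 2-fold in every library, nor was any of the 2 checkpoint genes and 3 Ly6 family genes that passed it. Of 3 cycling genes 1, Stmn1, was higher (74.8, 55.5 and 80.7 against 11.9, 15.7 and 14.2 CPM), and UMIs of both Mki67 and Top2a were seen in 3, 4 and 1 memory-like cells (1.57%, 0.895% and 1.22%).

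Against the Gzmk or Pdcd1 positive cells, 26 of 5715 genes were higher in memory-like cells (0.455% of those tested) and 127 lower (2.22%). The median gene was itself lower, at log2 ratios of -0.16, -0.27 and -0.30, and with size factors by median of ratios the split was 54 higher and 71 lower (43.2% higher, beside 17.0%). All 26 higher genes and 71 of the 127 lower genes kept their call under that scaling. With cells thinned to 2000 UMIs, 10 of the 26 and 60 of the 127 kept it. Library 3 gave only 12 Gzmk or Pdcd1 positive cells to this comparison, and 1 of them held 29344 of their 91237 UMIs. The summed levels of that population in library 3 therefore lean on 1 cell. Without library 1, 2 or 3 in turn, 50, 59 and 54 genes were higher and 308, 209 and 203 lower.

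Itga4 (chr2:79255426-79333123, plus strand), the CD49d integrin chain, was among the genes furthest below the Gzmk or Pdcd1 positive cells. It was at 90.9 CPM (76.0 to 108), 44.9 (38.4 to 52.3) and 242 (206 to 283) in memory-like cells, 1199, 1438 and 1414 in Gzmk or Pdcd1 positive cells and 364, 300 and 339 in Ccl5-negative cells. After thinning, 11.2%, 6.53% and 30.5% of memory-like cells had an Itga4 UMI, against 86.2%, 85.5% and 91.7% of Gzmk or Pdcd1 positive cells and 39.5%, 37.2% and 39.5% of Ccl5-negative cells. In libraries 1 and 2 the memory-like cells were thus below Ccl5-negative cells as well. In library 3 their CPM was 0.715-fold that of Ccl5-negative cells, while the 2 intervals of the shares (20.8 to 41.6 and 34.8 to 44.3) overlapped.

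Tox (chr4:6686353-6991557, minus strand), a nuclear factor of chronically stimulated T cells, was at 21.0, 23.0 and 35.0 CPM in memory-like cells, 346, 280 and 175 in Gzmk or Pdcd1 positive cells and 55.7, 39.3 and 59.8 in Ccl5-negative cells. Lag3, an inhibitory receptor, had 0, 6 and 0 UMIs in memory-like cells against 60, 13 and 2 in Gzmk or Pdcd1 positive cells. The signalling regulator Rgs1 was at 15.4, 7.31 and 21.3 against 194, 224 and 54.8 CPM. Il10ra, an interleukin 10 receptor chain, was at 24.5, 27.9 and 25.9 against 92.7, 129 and 153 CPM. Hip1, Trps1, Ptms, Cx3cr1, Birc5 and Ube2c were also among the 10 genes furthest below. Of 18 cytotoxic genes that passed the filter 6 were lower and none higher, the chemokine genes Ccl3 and Ccl4 and Fasl among them. Klrg1 and Serpinb6b of that list, Prdm1 of the memory list and Cdk1 of the cycling list lost their call under median-of-ratios scaling.

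Higher in memory-like cells was Rgs10, a regulator of G protein signalling, at 157, 128 and 158 CPM against 10, 5 and 2 UMIs (20.6, 18.4 and 21.9 CPM) in Gzmk or Pdcd1 positive cells. Ccl5-negative cells had 225, 170 and 151 CPM of it. Satb1, given above, was higher as well. Il18r1 was at 280, 344 and 229 CPM against 70.0, 125 and 32.9 CPM, the last of these from 3 UMIs. Of 12 naive genes that passed the filter 2 were higher, and of 14 NK receptor genes 1, Klra3. Gzmk or Pdcd1 positive cells had only 3, 3 and 0 UMIs of Klra3 in libraries 1, 2 and 3. Against the floor of 3 counts, Klra3 was at least 0.927-fold in library 3, which does not show a higher level. Its call in that library rests on the small count added before the ratio was taken.

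Promoters are printed for Gzmm, which was higher than in Ccl5-negative cells, and Itga4, which was lower than in Gzmk or Pdcd1 positive cells. They were picked after a search for a sequence known to be bound by T-box factors such as Eomes and T-bet, since both hold it. Capitals mark the motif GGTGTGA, which was searched on both strands (as TCACACC on the other) in 250 bases before to 50 after each RefSeq start (GRCm38.p6). It begins at base 86 of the Itga4 stretch, at -165 from the start, and at base 62 of the Gzmm stretch, at -189, for 1 of the 2 listed Gzmm starts. The Gzmm stretch lies inside the gene span given above (chr10:79689020-79695261), and the other Gzmm start had no match.
Gzmm promoter (chr10:79693576-79693875, plus strand): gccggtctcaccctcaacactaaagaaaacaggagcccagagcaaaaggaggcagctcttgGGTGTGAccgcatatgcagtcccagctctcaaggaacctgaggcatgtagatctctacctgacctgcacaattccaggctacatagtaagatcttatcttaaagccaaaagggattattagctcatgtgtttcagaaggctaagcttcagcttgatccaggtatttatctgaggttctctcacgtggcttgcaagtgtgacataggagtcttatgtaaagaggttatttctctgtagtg
Itga4 promoter (chr2:79255176-79255475, plus strand): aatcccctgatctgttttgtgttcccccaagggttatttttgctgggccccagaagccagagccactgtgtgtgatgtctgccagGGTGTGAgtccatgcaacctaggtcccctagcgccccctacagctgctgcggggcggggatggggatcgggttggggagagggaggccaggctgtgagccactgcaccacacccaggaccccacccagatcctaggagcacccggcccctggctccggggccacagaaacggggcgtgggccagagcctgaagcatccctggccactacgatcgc
The motif was in 1307 of all 32851 promoters (3.98%). It was in 6 of 89 promoters of genes higher than in Ccl5-negative cells (6.74%) and 1 of 41 of genes lower (2.44%), and in 0 of 40 promoters of genes higher than in Gzmk or Pdcd1 positive cells and 6 of 116 of genes lower (5.17%). Nkg7 and Xcl1 also had a match, and Klrc2, Klrk1, Ctla2a, Eomes, Cxcr3 and Cd44 had none in this window.

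The leading T cell receptor variable segments were not the same in the memory-like cells of the 3 libraries. These libraries count the 3′ ends of transcripts, so a Trbv UMI (β chain variable segment) was seen in only 59, 143 and 40 memory-like cells (30.9%, 32.0% and 48.8%). In library 2, 46 of the 143 cells had Trbv1 (32.2%, 24.6 to 40.5) and 35 had Trbv3 (24.5%, 17.7 to 32.4), together 56.6%. In the Ccl5-negative cells of the same library each was in 1 of 60 cells (1.67%). In library 1 Trbv13-3 led, in 12 of 59 cells (20.3%, 11.0 to 32.8), against 2 of 34 Ccl5-negative cells (5.88%). In library 3 Trbv16 led by cells, in 6 of 40 (interval 5.71% to 29.8%), against 10 of 137 Ccl5-negative cells (7.30%). Trbv1 and Trbv2 followed there in 5 cells each, and by UMIs Trbv2 was above Trbv16 (12 and 7 of 64).

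The effective number of Trbv segments, the inverse of the sum of squared shares of UMIs, was 9.02, 5.40 and 10.2 in memory-like cells and 11.1, 10.7 and 15.2 in Ccl5-negative cells. Among the α chain segments Trav16 was in 43 of 156 library 2 cells (27.6%) and Trav10 in 15 of 67 library 1 cells (22.4%). Both chains were seen in 20, 49 and 14 memory-like cells. In library 2 these made 25 distinct pairs, Trbv1 with Trav16 in 13 cells and Trbv1 with Trav4-3 in 8. In library 1, 5 of the 6 Trbv13-3 cells with both chains had Trav10. In library 3 the 14 cells had 14 different pairs, and the 45 such Ccl5-negative cells of library 3 had 43. The constant segment Trbc1 was lowest in library 2, at 484, 202 and 516 CPM, while Trbc2 was at 904, 905 and 934 CPM. Since the cells of several mice were pooled in a library, cells of 1 mouse cannot be told from those of another.

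The segments that led in libraries 1 and 2 are printed below by their last 120 coding bases (GENCODE vM21, GRCm38), with capitals from the codon of the conserved cysteine that opens the third complementarity-determining region, the part of the receptor that touches the peptide.
Trbv1 (chr6:40891766-40891885, plus strand): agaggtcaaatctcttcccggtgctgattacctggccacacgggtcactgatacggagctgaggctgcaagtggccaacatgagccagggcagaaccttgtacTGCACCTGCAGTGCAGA
Trbv3 (chr6:41048709-41048828, plus strand): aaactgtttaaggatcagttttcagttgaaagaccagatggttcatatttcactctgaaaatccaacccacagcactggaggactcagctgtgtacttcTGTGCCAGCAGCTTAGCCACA
Trbv13-3 (chr6:41130466-41130585, plus strand): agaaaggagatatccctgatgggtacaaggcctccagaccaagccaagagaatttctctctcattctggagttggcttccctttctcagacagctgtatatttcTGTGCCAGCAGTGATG
Trav16 (chr14:53743586-53743705, plus strand): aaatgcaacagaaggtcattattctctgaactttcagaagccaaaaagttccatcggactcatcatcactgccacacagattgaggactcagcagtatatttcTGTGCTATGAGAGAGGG
Trav10 (chr14:53506167-53506286, plus strand): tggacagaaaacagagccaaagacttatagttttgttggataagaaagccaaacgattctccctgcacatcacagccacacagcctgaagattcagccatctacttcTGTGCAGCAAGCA
Trbv1 shared 53.5% of aligned bases with Trbv3 and 54.7% with Trbv13-3, so these were far apart in sequence. Trav16 shared 98.3% with Trav16d-dv11 and 97.7% with Trav16n, and Trav10 shared 99.3% with Trav10d, so reads of these α segments could be split among copies and their counts are uncertain. The 46 Trbv1 cells of library 2 had 382 CPM of Gzmm and 4.39 CPM of Itga4. Its 97 cells with another Trbv segment had 262 and 49.0 CPM. The 35 Trbv3 cells of library 2 had 294 CPM of Gzmm and 23.7 of Itga4, against 308 and 35.8 CPM in 108 cells with another segment. The 12 Trbv13-3 cells of library 1 had 394 CPM of Gzmm and 131 of Itga4, against 191 and 120 CPM in 47 cells with another segment. No intervals were taken for these levels, which rest on few cells.

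**Figure D4:**
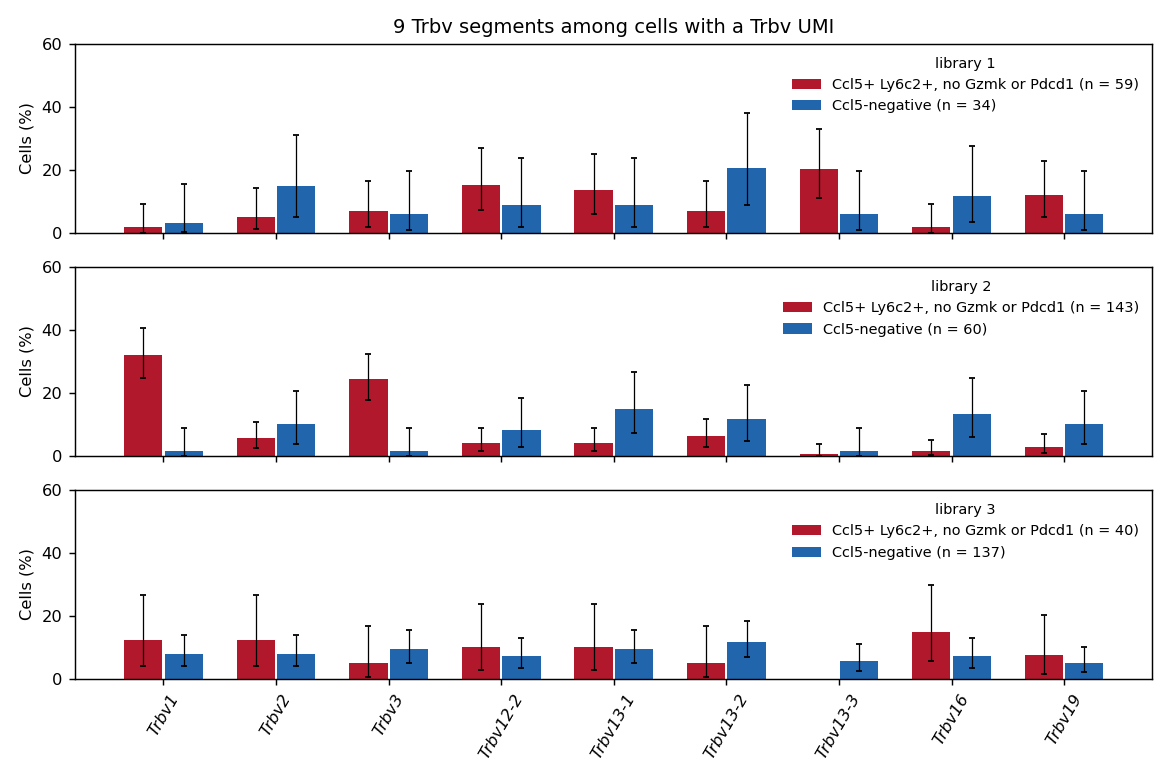
Share of cells with a Trbv UMI (percent, y axis) that held each of 9 Trbv segments, in memory-like and Ccl5-negative CD8 T cells of libraries 1 to 3, with exact 95% binomial intervals. Trbv1 and Trbv3 reached 32.2% and 24.5% of memory-like cells in library 2, and Trbv13-3 reached 20.3% in library 1.

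Between the libraries, 233 of 5417 genes within the memory-like cells had their highest CPM past 2-fold over their lowest (4.3% of those tested), and in 181 of these the intervals were also apart (3.34%). In 18 of these 181 genes, over 50% of the UMIs of the highest library lay in 1 cell. Over all genes the median ratio of highest over lowest was 1.29. Of the 181, libraries 1, 2 and 3 were highest for 59, 55 and 67 and lowest for 39, 54 and 88. Library 3 thus had the largest count at both ends. Of 15 NK receptor genes 7 were among them, of 15 cytotoxic genes 6, of 17 memory genes 4, of 12 naive genes 3 and of 8 interferon genes 0. Haemoglobin genes led, and 1 library 1 cell held 1128 of 1543 UMIs of Hbb-bs (1079, 30.3 and 47.2 CPM, and 293 in library 1 without that cell). Ccl5-negative cells of library 1 also had 3459 CPM of it, against 43.2 and 50.7 in libraries 2 and 3. S100a9, a neutrophil gene, had the same order in memory-like cells (131, 10.3 and 25.9 CPM) and Ccl5-negative cells (213, 10.8 and 25.6 CPM). The part of red cell and neutrophil RNA in other differences of library 1 was not tested.

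Fcgr2b, an inhibitory receptor for IgG, was at 68.5 CPM (55.6 to 83.5), 96.1 (86.3 to 107) and 6.09 (1.66 to 15.6) in memory-like cells. It was at 11.9, 7.85 and 4.72 CPM in Ccl5-negative cells of the same libraries. B cells express this gene. The 6 listed B cell markers, with Cd79a at 0 by the rule, summed to 319, 566 and 644 CPM in the memory-like cells. In Ccl5-negative cells they summed to 802, 1061 and 902 CPM. The part of B cell RNA in the Fcgr2b level was not tested. Of thinned memory-like cells 12.8%, 15.8% and 1.22% had an Fcgr2b UMI, against 0.473% of Ccl5-negative cells in library 3 and none in libraries 1 and 2, which allows up to 4.20% and 2.22%. Fcgrt, the neonatal Fc receptor, was also lowest in library 3, at 220, 192 and 32.0 CPM in memory-like cells. Ccl5-negative cells had 29.8, 32.4 and 25.2 CPM of it.

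The chemokine receptor Ccr2 was at 134, 169 and 18.3 CPM in memory-like cells (20.2%, 25.5% and 2.44% of thinned cells), against 23.9, 2.94 and 4.33 CPM in Ccl5-negative cells. The antibody to CCR2 did not show this, with medians of 37, 42 and 38 counts in memory-like cells and 36, 42 and 40 in Ccl5-negative cells. S100a6, given above, had UMIs in 79.8%, 84.0% and 36.6% of thinned memory-like cells. Id2, a transcriptional regulator of effector cells, was at 243, 284 and 97.5 CPM, and its relative Id3, of naive and long-lived cells, at 14.0, 16.2 and 101 CPM. Library 3 was thus lowest in Id2 and highest in Id3. Id3, Dapl1 and Actn1 (45.5, 38.2 and 123 CPM) were the 3 naive genes, and all 3 were highest in library 3. Ikzf2, the factor Helios, was highest there as well, at 29.4, 25.4 and 97.5 CPM.

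By share of thinned cells, Gzmm was seen in 27.1% (20.9 to 34.1), 37.4% (32.9 to 42.1) and 4.88% (1.34 to 12.0) of memory-like cells and Klrc2 in 26.1%, 20.3% and 11.0%. In cells with Cd79a and no Cd3 UMI, whose median depth before thinning was 3756, 3571 and 3830.5 UMIs, Gzmm was seen in 0.264%, 0.486% and 0.227% and Klrc2 in 0.264%, 0.746% and 2.07%. Without thinning the shares were 55.0%, 70.7% and 23.2% for Gzmm, 62.8%, 67.8% and 25.6% for Klrk1, 86.4%, 91.3% and 84.1% for Il2rb and 23.6%, 16.6% and 58.5% for Itga4, in the same order of libraries for Gzmm and Itga4. Ctla2a was seen in 63.3%, 45.0% and 34.1% of memory-like cells and Eomes in 26.1%, 32.9% and 20.7%. Cxcr3 was seen in 20.7%, 22.5% and 20.7%. The rule genes differed too, with medians of 72, 71 and 21.5 Ccl5 UMIs and 9, 10 and 7 Ly6c2 UMIs per cell. Their part in the lower levels of library 3 was not tested.

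**Figure D5:**
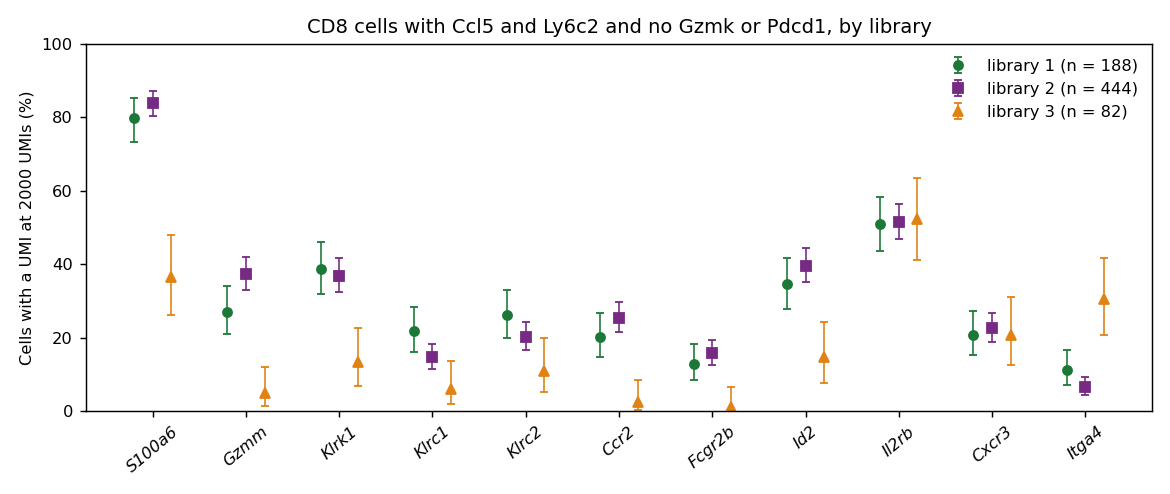
Share of memory-like cells (percent, y axis) with a UMI of each of 11 genes after thinning to 2000 UMIs, in libraries 1, 2 and 3 (188, 444 and 82 cells), with exact 95% binomial intervals. Library 3 was lowest for Gzmm (4.88%) and highest for Itga4 (30.5%), while Il2rb and Cxcr3 had nearly the same share in each.

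A division of the memory-like cells by their Itga4 UMIs was chosen after the values were seen and is a description with no test. In libraries 1, 2 and 3, 21, 19 and 21 cells (11.0%, 4.25% and 25.6%) had 3 or more Itga4 UMIs, and 146, 373 and 34 cells (76.4%, 83.4% and 41.5%) had none. The cells with 3 or more had 73.6, 31.8 and 30.9 CPM of Gzmm (9, 3 and 5 UMIs), against 283, 291 and 45.1 CPM in those with none. In library 3 these intervals overlapped (10.0 to 72.0 and 24.0 to 77.1), and the 27 cells with 1 or 2 Itga4 UMIs had the most, 112 CPM. The cells with 3 or more had 491, 562 and 777 CPM of Gzma against 0.880, 1.58 and 41.6 CPM, which rests on the few Gzma cells named above. Zeb2, a factor of terminal effector cells, was at 123, 594 and 154 CPM in the cells with 3 or more. It was at 17.6, 16.7 and 3.47 CPM in those with none, the last of these from 1 UMI. The chemokine receptor Cx3cr1 was at 114, 255 and 43.2 against 0.880, 0.948 and 13.9 CPM. Its 0.880 and 0.948 CPM rest on 1 and 3 UMIs. In library 3 only 2 memory-like cells had a Cx3cr1 UMI, with 7 and 4, and the intervals overlapped (17.4 to 89.0 and 3.78 to 35.5). Ikzf2 was at 65.4, 180 and 253 against 17.6, 14.5 and 52.0 CPM. S100a4, outside the lists, was at 352, 456 and 18.5 against 54.6, 67.3 and 218 CPM, so library 3 went the other way. Its 18.5 CPM rests on 3 UMIs. Median CD44 antibody counts were 246, 206 and 186 in the cells with 3 or more and 282, 260 and 198 in those with none. Their median depths were 5465, 4798 and 7234 UMIs, against 7727, 8270 and 7956.5.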

How the data were processed

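Deposited by the authors was 1 matrix of UMI counts, as whole numbers without any scaling, for 31053 genes and 34 antibodies. Cell Ranger 5.0.1 stands in its header. The processing notes of the submitters list Cell Ranger, Seurat and the build mm10. The methods describe joining of the libraries by Cell Ranger aggregation, and no source used here says whether they were subsampled. Of the genes, 30934 (99.6%) matched an identifier of GENCODE vM21, from which coordinates were taken.

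Barcodes with 300 to 5000 genes and at most 10% mitochondrial UMIs were kept. Apart from the limit of 5000 genes no doublets were removed, and Scrublet per library was an alternative. UMIs were summed per population and library and given as CPM. Genes with a mean of at least 20 CPM over the 2 populations (or the 3 libraries) were compared by size (2-fold in every library, after adding 0.5 counts). Against a count of 0 the floor was 3 counts per library. Beside the listed genes and S100a4, the text names those of the 10 largest ratios of each comparison, among genes of at least 50 CPM. Immunoglobulin, receptor variable, ribosomal protein, mitochondrial, Gm and Rik genes were left out of these. Receptor segments were named for their values. The memory-like cells and the gene lists were chosen with earlier results of these data known. The listed gene Cd244a was not matched, and some listed genes are not reported here.

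Alternatives were other limits of the rule, filters, folds, scaling by median of ratios, thinning to 1000 or 2000 UMIs and leaving out each library. The code was tested on simulated data. Python 3.11.15, numpy 2.4.6, scipy 1.17.1, pandas 2.3.3, scanpy 1.11.5, matplotlib 3.10.9 and biopython 1.88 were used.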

Additional observations from a re-analysis of the deposited data

Results flagged for a closer look

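Among the barcodes outside the comparisons, 89 (20, 67 and 2 in libraries 1, 2 and 3) met every limit of the memory-like rule but not those on quality, 88 for over 10% mitochondrial UMIs and 1 for its number of genes. They had medians of 1599 UMIs, 260 CD44 and 488 Ly-6C antibody counts. Their summed RNA held 475 CPM of Gzmm, 276 of Klrc2, 995 of Il2rb, 1023 of Ctla2a, 205 of Eomes and 188 of Itga4. They drew notice because these memory genes appear in data that no comparison used.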

How the results depend on the processing

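No paired analysis was possible because each group has 1 library and no suffix is tied to a group. The memory-like share kept its value within 95% binomial error in libraries 1 and 2 under every alternative; in library 3 it was 16.8% with at least 1 Ccl5 UMI and 8.57% after thinning to 2000 UMIs, beside 13.2%. The counts of genes moved with filter and fold. At a mean of at least 50 CPM, 36 genes were higher and 15 lower than in Ccl5-negative cells, 12 and 51 than in Gzmk or Pdcd1 positive cells, and 59 differed between libraries. With no filter these were 284 and 208, 60 and 2353, and 5441. At 1.5-fold they were 139 and 112, 95 and 358, and 1187, and at 3-fold 47 and 15, 5 and 43, and 57. Median-of-ratios scaling gave 54 and 71 against Gzmk or Pdcd1 positive cells, and thinning gave 17 higher there and 1081 between libraries, where 233 were past 2-fold whether or not intervals were apart. Without each library in turn, 83 to 105 genes were higher and 43 to 105 lower than in Ccl5-negative cells (105 lower without library 3), 50 to 59 higher and 203 to 308 lower than in Gzmk or Pdcd1 positive cells, and 39 to 165 differed between libraries (128 without library 1, 39 without library 3). Leaving out the cell with most UMIs of each gene, an alternative added after seeing the data, gave 236. The causes were not tested. Of 36 antibody ratios, 19 moved as shares of antibody counts and 1 turned round, CD38 over Ccl5-negative cells in library 2 (0.845). Levels of genes in library 3 rest on 82 cells, and its Gzmk or Pdcd1 positive cells on 12.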

Other observations

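Markers of other cell types were counted in the memory-like cells at these levels. Erythroid markers summed to 1868, 58.5 and 85.3 CPM in libraries 1, 2 and 3, myeloid markers to 353, 90.9 and 64.0, plasma cell markers to 35.0, 32.7 and 30.5, and type 1 dendritic cell markers to 15.4, 16.2 and 10.7. Platelet markers, Pf4 among them, summed to 1.40, 8.93 and 1.52 CPM. Gamma delta T cell genes summed to 42.0, 17.6 and 57.9 CPM. Of the markers of innate-like T cells, which summed to 39.9, 30.3 and 16.8 CPM, Zbtb16 and Il17rb were at 0 in libraries 1 and 2.

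Of 76 Mki67 UMIs in library 3, 72 lay in 1 cell, which took Mki67 to 116 CPM there, and to 6.31 CPM without it.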
